A study of Mus musculus with 8 samples.

Results

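Osteocalcin-high periosteal osteoblasts were the collagen-expressing cells of the long bone periosteum that carried abundant RNA of osteocalcin and bone sialoprotein. They were selected on measured counts. Barcodes were kept with a number of detected genes above 500 and below 8000, and with less than 20% of their unique molecular identifiers (UMIs, each counting 1 captured RNA molecule) from mitochondrial genes. A kept cell was gated as collagen-expressing when Col1a1, Col1a2, Col3a1 and Dcn together made up at least 0.5% of its UMIs, with no UMI of the endothelial gene Cdh5 and fewer than 5 UMIs of the pericyte gene Rgs5. Of the gated cells, those with at least 20 UMIs of Bglap, Bglap2 and Ibsp together were osteocalcin-high. The rule was met by 193 of 12253 kept cells, 62 of 6029 in the normal diet (ND) library and 131 of 6224 in the high-fat diet (HFD) library. The other gated cells, 344 in ND and 542 in HFD, are called osteocalcin-low here.

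The study asked how type 2 diabetes with loss of sensory nerves alters gene expression in the skeleton. Male C57BL/6J mice began ND or HFD (60% of its calories as fat) at 4 weeks of age and were taken at 16 weeks, after 12 weeks of diet. Periosteal cells of the left femur and tibia were freed with collagenase and dispase, and single cells were barcoded on the 10X Chromium platform. The labels list 4 replicates per diet, but the deposited counts are 1 pooled matrix per diet in which no barcode carries a replicate. Each diet is therefore 1 library, no test between diets was possible, and every interval below is an exact 95% interval of counting error alone. The ND library held 48558889 UMIs and the HFD library 49940976. Between the libraries 15 cell barcodes were shared, none of them of an osteocalcin-high cell.

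Osteoblasts build bone by secreting type I collagen and then loading it with noncollagenous proteins that bind mineral. Osteocalcin, made from Bglap and Bglap2, and bone sialoprotein, made from Ibsp, belong to the late part of this program, tissue-nonspecific alkaline phosphatase (Alpl) frees phosphate for mineral growth, osteopontin (Spp1) is an acidic phosphoprotein of mineral surfaces, and collagenase-3 (Mmp13) cleaves collagen. The transcription factors RUNX2 and SP7 (osterix) are required for osteoblast formation, and RUNX proteins bind a core of 6 letters, ACCACA, which reads TGTGGT on the opposite strand.

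Since these genes share a known regulator, the promoter stretches that hold this core are shown first. RefSeq windows (GRCm38.p6, from 250 bases before to 50 bases after a start) were searched for ACCACA and TGTGGT on both strands. The core was present in the windows of Bglap, Mmp13 and Runx2 and in 1 of 2 windows of Spp1, and absent from those of Ibsp, Tnn and Alpl (2 windows). Of all 32817 windows of this length, 16.8% hold it, so that a match is a description of the letters and not evidence of binding. Bglap2, Sp7, Prg4 and Ostn had no window in the table. In the following lines the core is in capitals, and each stretch reads 5′ to 3′ along the gene's own strand.
Bglap: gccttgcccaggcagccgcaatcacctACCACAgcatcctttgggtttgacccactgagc
Mmp13: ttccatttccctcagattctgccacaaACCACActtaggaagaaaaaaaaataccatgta
Spp1: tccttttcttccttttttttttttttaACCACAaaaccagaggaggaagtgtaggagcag
Runx2: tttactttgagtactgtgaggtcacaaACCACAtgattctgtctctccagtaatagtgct
These stretches lie at chr3:88384566-88384625 (minus strand), chr9:7272369-7272428 (plus strand), chr5:104434956-104435015 (plus strand) and chr17:44814675-44814734 (minus strand). The core began 132 bases before the start in Bglap, 118 before in Mmp13, 128 before in Spp1 and 80 before in Runx2, and Runx2 held 2 more copies after its start. All of these genes were detected in the osteocalcin-high cells.

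The osteocalcin-high cells were similar in depth to the other gated cells. Their median depth was 10194 UMIs per cell in ND (range 1588 to 39105) and 9007 in HFD (1309 to 48273), against 10516 and 9542 in osteocalcin-low cells. In total they held 698751 UMIs in ND and 1509651 in HFD. The counts that selected them, Bglap, Bglap2 and Ibsp together, ran from 21 to 1817 UMIs per cell in ND with a median of 96.5, and from 20 to 1446 in HFD with a median of 101. Most osteocalcin-low cells had none at all, 86.0% in ND and 79.2% in HFD, and the selected cells held 94.9% and 92.5% of the UMIs of these 3 genes over all kept cells. The threshold passes through a thinly filled range: 4 ND and 8 HFD cells had 20 to 24 UMIs, and 6 ND and 7 HFD cells had 15 to 19. Cells just above it carried 75.5 (ND) and 444 (HFD) Alpl UMIs per 1000000, and cells just below it 114 and 122.

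**Figure D1:**
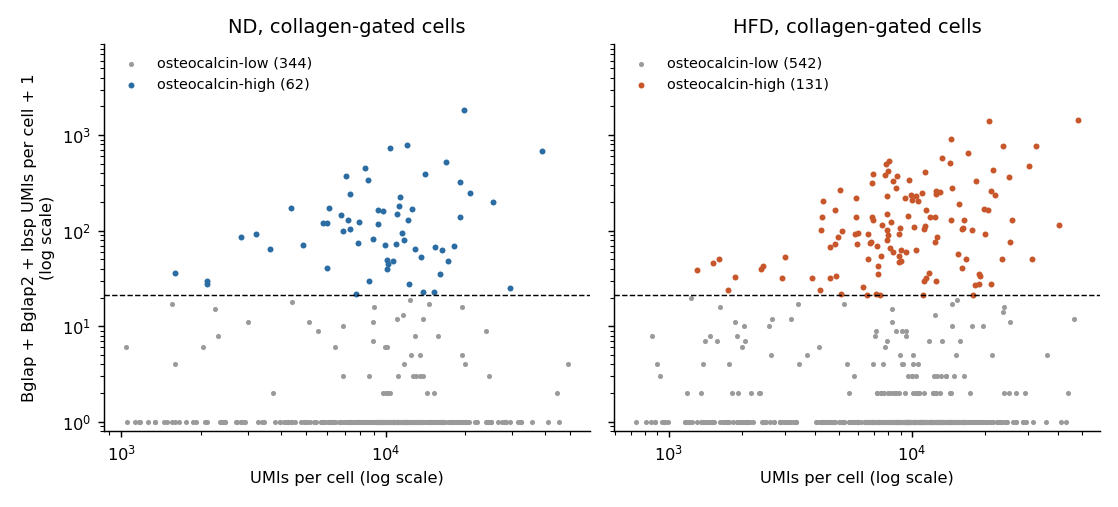
Bglap, Bglap2 and Ibsp UMIs per cell with 1 added, against all UMIs per cell, for every collagen-gated cell of the ND library (left) and the HFD library (right), both axes on log scales. Coloured points are the 62 ND and 131 HFD osteocalcin-high cells, grey points the 344 and 542 osteocalcin-low cells, and the dashed line is the threshold of 20 UMIs. Most grey points lie at 0 UMIs, and high cells are spread over the depth range.

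Osteocalcin and bone sialoprotein did not always come together. Bglap and Bglap2 alone reached 20 UMIs in 55 of 62 ND and 111 of 131 HFD cells, and the other 7 and 20 cells entered through Ibsp, 3 and 6 of them without a Bglap or Bglap2 UMI. Conversely, Ibsp was at 0 in 24 of 62 ND and 56 of 131 HFD cells, while 27 and 54 cells had at least 20 Ibsp UMIs. The ranks of the Ibsp and Bglap shares across cells had a Spearman's rho of 0.051 in ND and -0.13 in HFD, a description only, because selecting cells on the sum of these genes lowers it. The ranks of Bglap and Bglap2 went together (0.83 in ND and 0.84 in HFD), but their transcripts are near copies: 299 of their last 300 bases are identical, and Bglap3 shares 290 of 300 with Bglap, so that a 3′ assay can misplace reads among the 3 genes and only their sum is firm.

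The label was checked on genes the rule did not use. Levels are given as UMIs per 1000000 (UPM), over totals that leave out Bglap, Bglap2, Bglap3 and Ibsp, with no correction for length, since each molecule is counted once at its 3′ end. Alpl stood at 1029 UPM in ND and 922 UPM in HFD, against 21.3 and 20.1 UPM in osteocalcin-low cells and 6.39 and 4.35 UPM in B cells, which should lack it and so show the level of free RNA. B cells were kept cells below the collagen gate with at least 5 UMIs of Cd79a and Cd79b, 1618 in ND and 1537 in HFD, with median depths of 3964 and 3863 UMIs. At a common depth of 2000 UMIs per cell (1 ND and 5 HFD osteocalcin-high cells were shallower and dropped out), an Alpl UMI was found in 67.2% in ND and 65.9% in HFD among osteocalcin-high cells, in 3.68% in ND and 2.65% in HFD among osteocalcin-low cells and in 0.819% in ND and 0.665% in HFD among B cells. Without thinning, the shares among osteocalcin-high cells were 87.1% in ND and 81.7% in HFD. A Runx2 or Sp7 UMI was present in 49 of 62 ND and 103 of 131 HFD cells. The label did not hold for every cell: 3 ND and 9 HFD cells had no UMI of Alpl, Runx2, Sp7 or Pth1r. As a description only, since Bglap, Bglap2 and Ibsp of the 6 osteoblast markers selected the cells, all 6 markers were present in 14 and 24 cells.

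Against the osteocalcin-low cells of the same library the osteocalcin-high cells carried a broad osteoblast program. Since the groups were cut by measured values, this contrast is a description without a test. Of 10562 genes with at least 20 UMIs in each library, 415 (3.93%) were at least 2-fold higher in osteocalcin-high cells in both libraries and 703 (6.66%) at least 2-fold lower. All 6 osteoblast markers were among the higher ones, 3 of them by the rule. The bone matrix list had 17 of its 22 measured genes at least 2-fold higher and 1 lower, with a median log2 difference of 2.65 in ND and 3.04 in HFD, beside 0.086 and -0.045 over all genes. Genes of the rule were not taken out for this count and median, and any of them in the list were higher by the selection itself. Against only the 9 ND and 20 HFD osteocalcin-low cells with at least 10 Postn UMIs, 113 genes were higher and 116 lower. The UMI minimum then passes a different set of genes, for which no share was computed. The transcription factor list had 6 of 9 at least 2-fold higher and none at least 2-fold lower, with log2 differences of 4.95 and 5.09 for Sp7, 2.44 and 2.57 for Runx2 and 1.61 and 1.61 for Dlx5, a homeobox factor of osteoblasts.

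After the marker genes and Bglap3, the highest difference was that of Tnn. Tnn, the matricellular protein tenascin-N of periosteum and other dense connective tissue, stood at 554 UPM in ND and 727 UPM in HFD against 9.65 and 16.7 UPM in osteocalcin-low cells. Ostn, which encodes the secreted peptide osteocrin of osteoblasts, stood at 585 and 537 UPM against 19.6 and 7.42 UPM. Postn, the collagen-binding periosteal protein periostin, stood at 3522 and 3788 UPM against 72.4 and 174 UPM. Each of these levels was more than 20 times that of the osteocalcin-low cells, in both libraries. Pth1r, the receptor through which parathyroid hormone acts on bone, reached 386 and 385 UPM against 22.9 and 29.7 UPM. Tnc (tenascin-C), Acta2 and Mylk (smooth muscle actin and myosin light chain kinase) and S1pr1 (a sphingosine 1-phosphate receptor) completed the 15 highest genes. S1pr1 was not specific to bone-forming cells, with 242 and 333 UPM in osteocalcin-high cells beside 227 and 219 UPM in B cells.

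The genes of fibroblast progenitors were lower. Of the 15 fibroblast progenitor genes, 12 were at least 2-fold lower and 1 higher in osteocalcin-high cells in both libraries. Over all 10562 genes these shares were 6.66% and 3.93%. Clec3b, Pi16, Dpp4 and Cd34, which mark fibroblast progenitors, together with the chemokine Ccl11, were among the 10 lowest genes. Clec3b stood at 1783 and 1465 UPM in ND and HFD osteocalcin-low cells, while the osteocalcin-high cells had 0 UMIs in ND, which allows up to 4.37 UPM, and 11 UMIs in HFD (7.40 UPM). Pi16 stood at 1.46 and 8.08 UPM against 732 and 676 UPM. The higher gene was Col3a1, a collagen of the gate itself, at 7418 and 7792 UPM against 2104 and 2277 UPM. Ly6a, the stem cell antigen Sca-1, was at 75.7 and 160.2 UPM against 1503 and 1333 UPM, and 4 ND and 11 HFD osteocalcin-high cells carried at least 5 UMIs of Ly6a, Pi16, Dpp4 and Cd34.

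**Figure D2:**
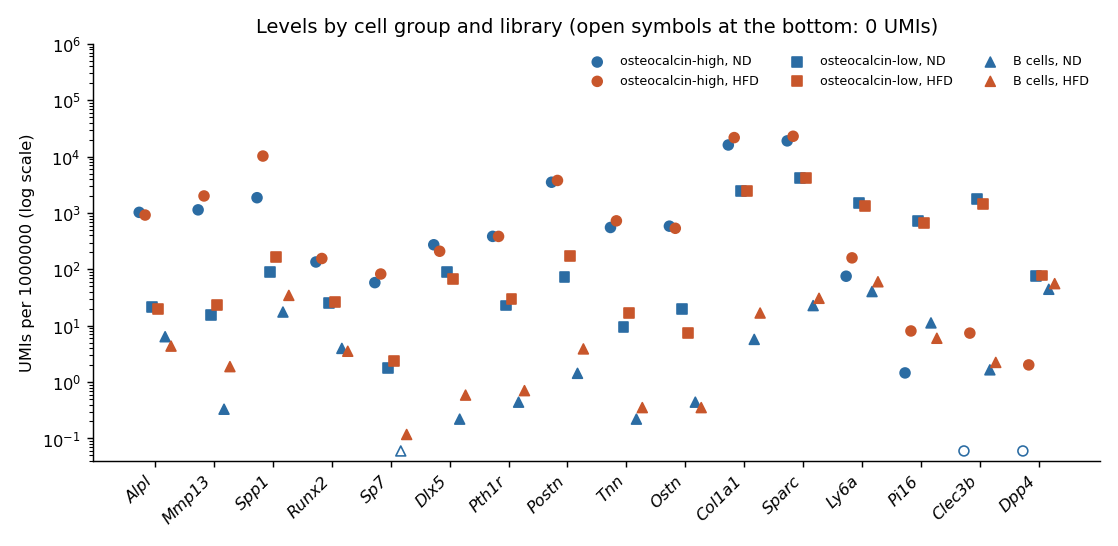
Summed UMIs per 1000000 (log scale) of 16 genes in osteocalcin-high cells (circles), osteocalcin-low cells (squares) and B cells (triangles) of the ND and HFD libraries; open symbols at the bottom stand for 0 UMIs. The osteoblast genes on the left are highest in the osteocalcin-high cells, and the fibroblast progenitor genes Ly6a, Pi16, Clec3b and Dpp4 on the right are highest in the osteocalcin-low cells.

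Several genes of the mature osteocyte, the cell that an osteoblast becomes when matrix buries it, were at or near 0. Sost, the Wnt inhibitor sclerostin of mature osteocytes, had 0 UMIs in both libraries, which allows up to 4.37 UPM in ND and 2.02 UPM in HFD. Mepe had 3 UMIs in ND and 0 in HFD, Phex 0 and 2, and Fgf23 0 and 5. Phospho1, a mineralization gene whose phosphatase starts mineral growth inside vesicles, had 0 and 1. Dmp1, a matrix phosphoprotein that marks the first osteocytes, had 1 UMI in ND and 16 in HFD, 10 of the 16 in a single cell. Of the 15 osteocyte-associated genes, Gja1, the gap junction protein connexin 43 that osteoblasts also use, was the most abundant at 1077 and 997 UPM, and Ptprz1 stood at 138 and 199 UPM against 1.78 and 10.7 UPM in osteocalcin-low cells. Of the 8 listed genes with enough UMIs, 4 were at least 2-fold higher than in osteocalcin-low cells in both libraries and 1 lower. Over all genes these shares were 3.93% and 6.66%. The median log2 difference of the list was 1.20 in ND and 1.37 in HFD. Between the diets 6 of 8 measured genes were higher in HFD, 1 of them at least 2-fold beside 3.72% of all genes. The median log2 ratio was 0.53.

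Other cell types of the preparation left few traces. The 6 endothelial genes summed to 2.91 UPM in ND and 8.08 UPM in HFD, the 6 pericyte genes to 10.2 UPM in ND and 8.75 UPM in HFD and the 5 T cell genes to 7.28 and 0 UPM. Cdh5 and Rgs5 were limited by the gate. Kdr, Emcn and other endothelial markers were at or near 0, with Egfl7 the most abundant of the list. The osteoclast list was led by Ctsk, which osteogenic cells of the periosteum also express, and 4 of its 8 genes were at 0. Neutrophil RNA was larger: the 10 neutrophil genes summed to 2869.8 UPM in ND and 9563 UPM in HFD, led by S100a9, below the 29853 and 19484 UPM of the osteocalcin-low cells. The 5 blood lists together reached at least 1% of UMIs in 5 ND and 9 HFD osteocalcin-high cells, with maxima of 10.8% and 21.6%. Cell cycle genes were sparse, and Mki67, a marker of dividing cells, had 2 UMIs in ND and 6 in HFD.

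The cells differed among themselves along lines that both libraries shared. Each gene's share of UMIs was ranked across the cells of a library, for 18 genes and 153 pairs, as a description in which cells share their library and depth. In both libraries 14 pairs had a rho of at least 0.4 and 2 of at most -0.4. Col1a1 went with Sparc, the collagen-binding protein osteonectin (0.78 in ND and 0.78 in HFD), and with Tnn (0.75 in ND and 0.60 in HFD). Postn went with Tnn (0.59 in ND and 0.64 in HFD), with Alpl (0.49 in ND and 0.58 in HFD) and with Aspn, a small leucine-rich proteoglycan (0.53 in ND and 0.49 in HFD). The 2 negative pairs set Prg4, the joint lubricant lubricin, against Alpl (-0.50 in ND and -0.41 in HFD) and against Postn (-0.48 in ND and -0.49 in HFD). Of the 10 pairs among Postn, Tnn, Aspn, Col1a1 and Acta2, 8 reached 0.4 in both libraries, and neither Bglap nor Bglap2 reached it with any of those 5 genes.

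**Figure D3:**
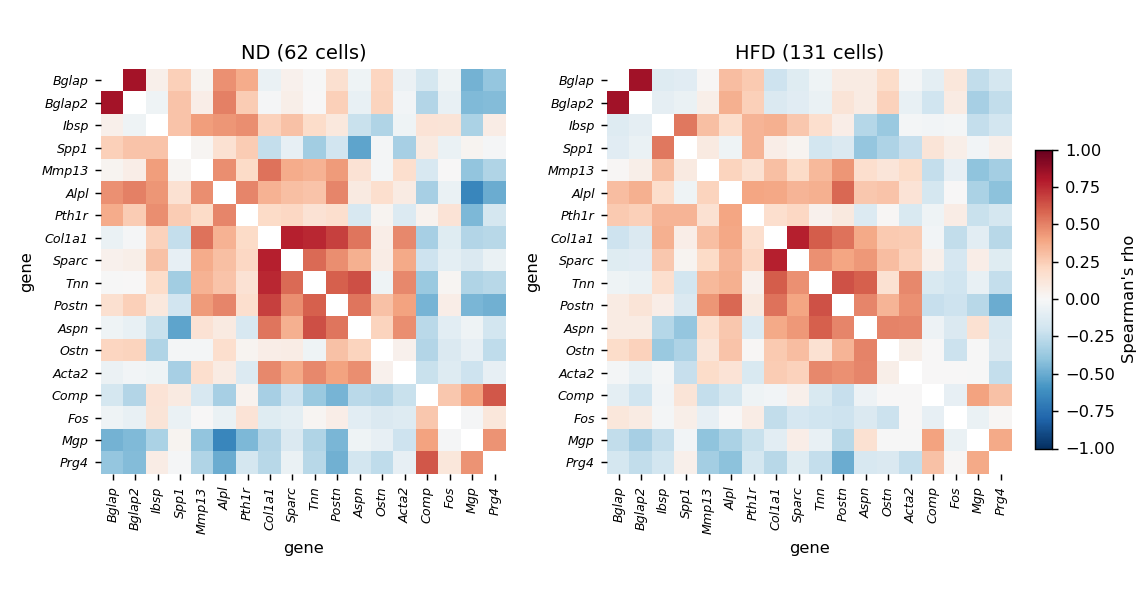
Spearman's rho between the UMI shares of 18 genes across the 62 ND cells (left) and 131 HFD cells (right), from -1 (blue) to 1 (red). The block of Col1a1, Sparc, Tnn, Postn, Aspn and Acta2 is positive in both libraries, and Mgp and Prg4 are negative with at least 13 of the 17 other genes in each.

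Ranked by their Bglap and Bglap2 share and cut into 3 equal parts, the cells changed in other genes too. Alpl read 652, 1120.5 and 1655 UPM from the lowest to the highest part in ND, and 441, 1284 and 1433 UPM in HFD. Pth1r read 266, 308 and 713 UPM in ND and 313, 407 and 503 UPM in HFD. Mgp, matrix Gla protein, an inhibitor of mineral deposition, went the other way, with 2916, 1994 and 1298 UPM in ND and 2900.3, 897 and 172 UPM in HFD. Alpl and Pth1r were thus lowest, and Mgp highest, in the part with least osteocalcin in both libraries. Prg4 was concentrated in that same part, at 7129.5 UPM in ND and 29362 UPM in HFD, against at most 676 UPM in the middle and highest parts. Depth moved along with the rank, with medians of 13606, 9978 and 7138 UMIs in ND and 15856, 8961 and 7909 in HFD; the rule is a number of UMIs, which a deep cell meets at a smaller share.

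Spp1 was carried by few cells. Only 26 of 62 ND and 50 of 131 HFD cells had an Spp1 UMI. In single cells the Spp1 share of UMIs ran from 0% to 4.74% in ND, with a median of 0%, and from 0% to 22.8% in HFD, with a median of 0%. At least 1% of UMIs came from Spp1 in 1 of 62 ND cells (1.61%, interval 0.0408 to 8.66) and in 16 of 131 HFD cells (12.2%, 7.15 to 19.1), and those 16 held 95.3% of all Spp1 UMIs of the HFD osteocalcin-high cells. The 3 highest HFD cells had 3021, 2465 and 1665 Spp1 UMIs, and the highest ND cell had 775.

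The 16 Spp1-rich HFD cells, a group defined after their values were seen, differed from the other 107 HFD cells that were rich in neither Spp1 nor Prg4. Ibsp stood at 20227 UPM in the Spp1-rich and 3553 UPM in the other cells, while Bglap was alike (4896 and 5072 UPM). Mmp13 (5119 and 1535 UPM), Sparc (41628 and 20985 UPM) and Comp, a pentameric protein of cartilage and tendon matrix (10289.6 and 2191 UPM), were higher in the Spp1-rich cells. The cartilage genes Acan (991 and 141 UPM) and Col2a1 (2049 and 998 UPM) were higher there too. Alpl (474 and 1149 UPM), Aspn (1089 and 5006 UPM), Ostn (11.8 and 731 UPM) and Acta2 (15.7 and 759 UPM) were lower. The Spp1-rich cells held 13 of the 16 Dmp1 UMIs of the HFD osteocalcin-high cells, most of them in a single cell. The levels in this paragraph are sums over cells, which single cells can lead. Over all HFD osteocalcin-high cells the highest cells held 1431 and 1382 of 9093 Ibsp UMIs, and 955, 830 and 813 of 5428 Comp UMIs. The median depth of the Spp1-rich cells was 10289.5 UMIs, against 8853 in the other cells.

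The Prg4-rich cells went against the label. Prg4 gave at least 1% of UMIs in 3 of 62 ND and 8 of 131 HFD cells, none of them Spp1-rich. In the 8 HFD cells Prg4 stood at 140907 UPM, and they held 96.7% of the Prg4 UMIs of HFD osteocalcin-high cells. They had 0 Alpl and 0 Sp7 UMIs and 1 Runx2 UMI, and low Col1a1 (1938 UPM against 21579.8 in the other cells) and Postn (62.5 against 4558 UPM). Fn1, fibronectin (15833 against 1315 UPM), Gsn, gelsolin (6405 against 1999 UPM), and Ly6a (1063 against 58.0 UPM) were higher. Bglap remained at 785 UPM in cells whose median depth was 18815 UMIs, beside 27.4 and 32.9 UPM in ND and HFD osteocalcin-low cells and 0.881 and 2.59 UPM in B cells, an excess that the rule itself set. These cells met the count rule without the osteoblast genes and are called Prg4-rich cells here. With cells selected by at least 0.2% osteocalcin UMIs in place of 20 UMIs, the Prg4 UMIs of both libraries together went from 23452 to 1848.

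**Figure D4:**
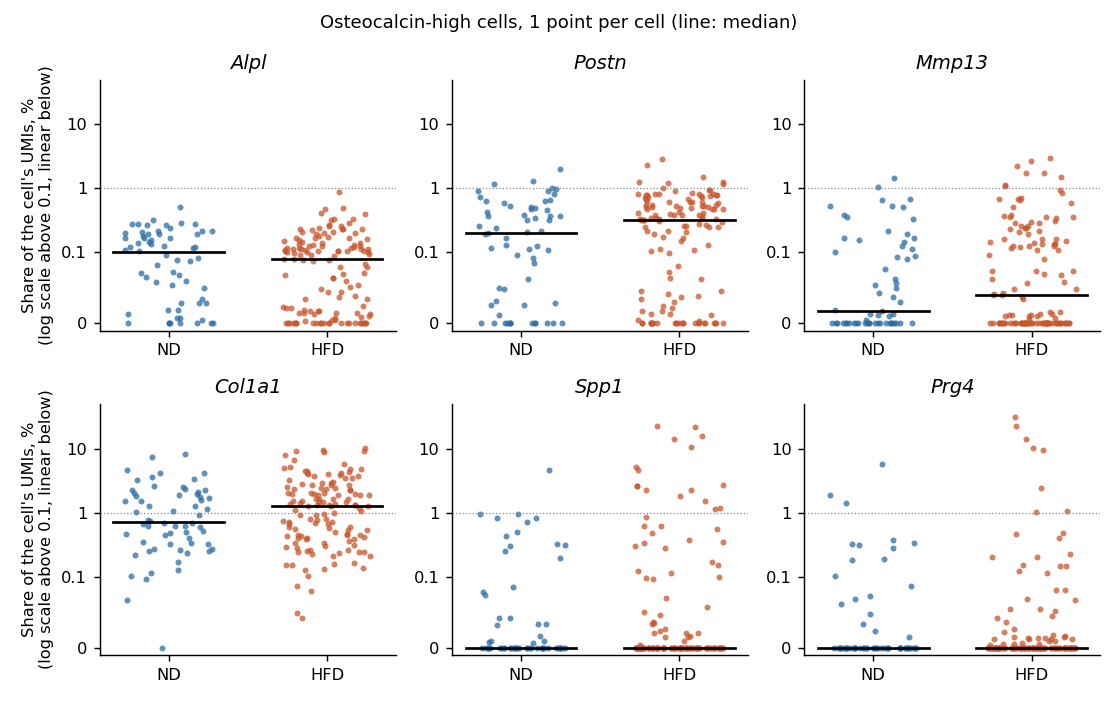
Share of each osteocalcin-high cell's UMIs (totals without osteocalcin genes and Ibsp) taken by Alpl, Postn, Mmp13, Col1a1, Spp1 and Prg4, in percent, on an axis that is linear below 0.1% and logarithmic above; 1 point per cell, black lines are medians, and the dotted line is 1%. Alpl, Postn and Col1a1 are spread over most cells of both libraries, while Spp1 and Prg4 have medians of 0 and rise above 1% in 1 and 3 ND and in 16 and 8 HFD cells.

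Between the diets, osteocalcin-high cells were 15.3% of gated cells in ND (62 of 406, interval 11.9 to 19.1) and 19.5% in HFD (131 of 673, 16.5 to 22.7). As a share of all kept cells they were 1.03% (0.789 to 1.32) and 2.10% (1.76 to 2.49). The intervals of the first pair overlap and those of the second do not, and the whole collagen gate held more cells in HFD (673 against 406). With 1 library per diet, the yield of each digestion and the effect of each diet cannot be told apart.

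Most osteoblast genes were within 2-fold between the diets. Of 8599 genes with at least 20 UMIs over both libraries, 320 (3.72%) were at least 2-fold higher in HFD osteocalcin-high cells and 284 (3.3%) at least 2-fold lower, and the median log2 ratio was -0.041. With each cell thinned to 2000 UMIs the counts were 116 and 102 of 2868 genes. Of the 6 osteoblast markers, 1 was at least 2-fold higher and none at least 2-fold lower. The genes of the rule are given as a description: Bglap stood at 5265 UPM in ND and 4627 UPM in HFD, Bglap2 at 5034 and 5124 UPM and Ibsp at 6191 and 6121 UPM. Alpl stood at 1029 UPM in ND and 922 UPM in HFD, a log2 ratio of -0.16 (-0.29 to -0.026). In single cells the Alpl share of UMIs ran from 0% to 0.517% in ND, with a median of 0.101%, and from 0% to 0.875% in HFD, with a median of 0.0906%. All ND values lay within the HFD range. Mmp13 stood at 1139 UPM in ND and 2010.0 UPM in HFD, a ratio of 0.82 (0.70 to 0.93), and over the cells in which it took under 1% of UMIs (60 in ND, 123 in HFD) at 969 and 1137 UPM.

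Spp1 was the marker past 2-fold. It stood at 1871 UPM in ND and 10268 UPM in HFD, a log2 ratio of 2.46 (2.37 to 2.54), 5.48-fold. The ratio was 3.47 without the highest cell of each library and 1.94 with cells weighted to the same mix of osteocalcin levels. The highest ND cell held 60.3% of the ND Spp1 UMIs, so that leaving it out mainly lowers ND and raises the ratio. Cells split on Spp1 itself can only describe where its UMIs lay. Over the cells in which Spp1 took under 1% of UMIs, 61 in ND and 115 in HFD, it stood at 762 and 581 UPM, a ratio of -0.39 (-0.56 to -0.22). For Prg4 the ratio was 1.98 (1.92 to 2.04) over all osteocalcin-high cells and -0.27 (-0.45 to -0.089) over the cells with under 1% Prg4. It turned to -0.46 when cells were selected by at least 0.2% osteocalcin UMIs in place of 20 UMIs. For Comp the values over all cells and under 1% were 1.31 (1.21 to 1.40) and -0.94 (-1.09 to -0.79). In osteocalcin-low cells the Spp1 ratio was 0.87, at levels of 89.9 and 164 UPM.

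Most matrix genes were within 2-fold. Of the 22 measured bone matrix genes, 2 were at least 2-fold higher in HFD (Spp1 and Col11a2, a fibrillar collagen chain with 17 UMIs in ND and 191 in HFD) beside 3.72% of all genes, and none at least 2-fold lower. The median log2 ratio was 0.26, beside -0.041 over all genes. Col1a1 stood at 16136 UPM in ND and 21809.5 UPM in HFD (0.43, 0.40 to 0.47), Col1a2 at 9344 and 11146 UPM (0.25) and Sparc at 19077 and 23046 UPM (0.27). In single cells the Col1a1 share of UMIs ran from 0% to 8.43% in ND, with a median of 0.719%, and from 0.0417% to 10.1% in HFD, with a median of 1.28%. None of the 21 collagen processing genes, which hydroxylate, fold and cross-link collagen, and none of the 18 secretory pathway genes passed 2-fold, with medians of 0.14 and -0.038. Serpinh1, the collagen chaperone HSP47, was 1609.5 and 1413 UPM. The 10 measured transcription factors had none past 2-fold, with Runx2 at 135 and 156 UPM and Sp7 at 58.2 and 82.8 UPM, and the 7 measured mineralization genes had none either.

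Early osteogenic and periosteal genes were likewise mostly within 2-fold. Of 11 measured genes 2 were at least 2-fold higher (Acta2 and Nes) and none at least 2-fold lower, beside 3.72% and 3.3% of all genes. Postn stood at 3522 UPM in ND and 3788 UPM in HFD (0.10, 0.036 to 0.17) and Aspn at 3446 and 3873 UPM (0.17). In single cells the Postn share of UMIs ran from 0% to 2.02% in ND, with a median of 0.198%, and from 0% to 2.84% in HFD, with a median of 0.317%. Acta2 stood at 249 and 564 UPM (1.18, 0.94 to 1.43). Acta2 was found in 13 ND and 49 HFD cells, and 46.8% of its ND UMIs came from 1 cell. The ratio was 1.93 without the highest cells, 2.03 as a mean over cells, 2.05 without the deepest cell of each library and 2.66 with cells thinned.

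Of the signals that osteoblasts send and receive, Igf1, insulin-like growth factor 1, was lower in HFD. It stood at 432 UPM in ND and 184 UPM in HFD, a log2 ratio of -1.23 (-1.48 to -0.99), which was -1.31 without the highest cell of each library and, no longer past 2-fold, -0.82 with cells thinned to 2000 UMIs. It was detected in 35 of 62 ND and 42 of 131 HFD cells, and in osteocalcin-low cells its ratio was -0.37. Of 15 measured BMP, TGF-beta and IGF ligands and their binding proteins, 1 was at least 2-fold higher and 3 at least 2-fold lower. Over all genes these shares were 3.72% and 3.3%. The lower ones were Igf1, Igf2 and Inhba, the last at -1.89, and -0.73 without the highest cell of each library. The higher one was Bmp8a, with 2 UMIs in ND and 30 in HFD. Among 24 measured hormone and growth factor receptors 1 was at least 2-fold higher and 2 at least 2-fold lower. These counts stand beside 3.72% and 3.3% of all genes. The lower ones were Calcrl, and the oestrogen receptor gene Esr1 with 13 and 12 UMIs. The median of the list was 0.031, and Pth1r, the most abundant, was level at 386 and 385 UPM. The higher one was Insr, the insulin receptor, with 2 and 18 UMIs in 2 and 16 cells (ratio 1.78, -0.0048 to 5.21). Of the receptors for nerve-derived signals, Ngfr had 1 UMI in ND and 0 in HFD, and Ramp1, a subunit of the receptor for calcitonin gene-related peptide, had 14 and 22. Calcrl, the partner of Ramp1, had 51 and 48 UMIs, and 94.1% of the ND UMIs came from 1 cell. Without the highest cell of each library the ratio of -1.20 turned to 2.31.

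Genes by which osteoblasts steer osteoclasts and Wnt signals were mostly within 2-fold. Tnfsf11, which encodes RANKL, the cytokine that drives osteoclast formation, stood at 29.1 and 51.2 UPM (0.79, 0.088 to 1.60), and its decoy receptor Tnfrsf11b (osteoprotegerin) at 34.9 and 53.9 UPM (0.60, -0.049 to 1.35). Of the 8 measured osteoclast regulators none was at least 2-fold higher and 2 were at least 2-fold lower, beside 3.3% of all genes. These were Il6 with 24 UMIs in ND and 12 in HFD, in 2 and 3 cells, and Ccl2 with 41 and 23 UMIs. In the Wnt list 3 of 8 measured genes were at least 2-fold higher (Wif1, Sfrp2 and Notum) beside 3.72% of all genes, and none at least 2-fold lower. Wif1, a secreted Wnt inhibitor, stood at 91.7 and 551 UPM, but it was found in 3 ND and 10 HFD cells. Sfrp4, another secreted Wnt antagonist, stood at 326 and 205 UPM (-0.67).

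The immediate early and stress genes were lower in HFD nearly throughout. Cells switch these genes on within minutes of a stimulus, tissue dissociation included. Of the 26 genes 25 were lower in HFD, 8 of them at least 2-fold beside 3.3% of all 8599 genes, with a median log2 ratio of -0.71, and the list summed to 28139 UPM in ND and 17037 UPM in HFD. Fos, the most abundant, stood at 5597 and 4108 UPM (-0.45, -0.50 to -0.39), and Egr1 at 1864 and 1213 UPM (-0.62). In single cells the Fos share of UMIs ran from 0% to 3.68% in ND, with a median of 0.444%, and from 0% to 2.45% in HFD, with a median of 0.291%. Atf3 (809 and 298 UPM, -1.44) and the RNA-binding protein gene Zfp36 (789 and 331 UPM, -1.25) were past 2-fold. The heat shock genes were lowest: Hspa1b stood at 426 and 72.7 UPM (-2.55, -2.88 to -2.23), Hspa1a at 456 and 134 UPM (-1.76) and their partner Dnajb1 at 275 and 81.5 UPM (-1.75). Metallothioneins Mt1 (1486 and 689 UPM) and Mt2 (544 and 221 UPM) and the chaperone gene Hsph1 completed the 8. Other cells showed it as well: the same 26 genes had a median ratio of -0.36 in osteocalcin-low cells and -0.77 in B cells, lower for 26 and 25 genes. Diet and preparation cannot be told apart, since each diet is 1 library.

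**Figure D5:**
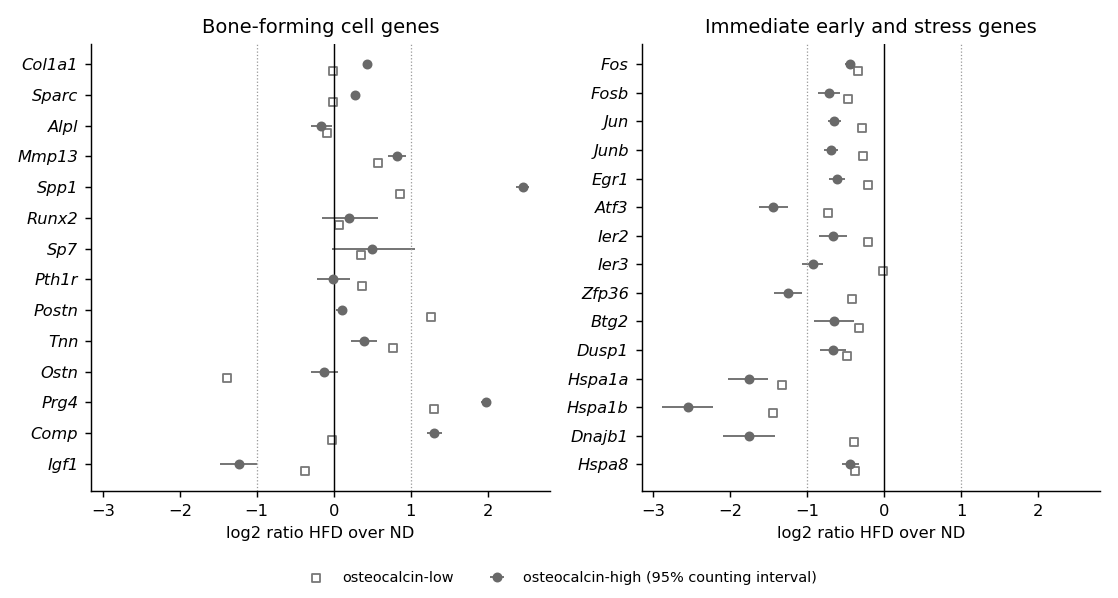
Log2 ratio of UPM, HFD over ND, for 14 genes of bone-forming cells (left) and 15 immediate early and stress genes (right). Filled circles are osteocalcin-high cells with exact 95% counting intervals (many narrower than the symbol), open squares osteocalcin-low cells, and dotted lines mark 2-fold. On the left most genes lie near 0 except Spp1, Prg4, Comp and Igf1, which lie past 2-fold; on the right every gene lies below 0 in osteocalcin-high cells.

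Single cells supplied much of the UMIs of the genes with the most extreme ratios. Among 1646 genes with at least 200 UMIs, 35 were at least 2-fold higher in HFD and 26 lower. In the median, 1 cell supplied 30% of the HFD UMIs of the higher genes, against 4.35% over all 1646 genes, and 18.2% of the ND UMIs of the lower genes, against 8.17%. Without the highest cell of each gene and library 34 of the 35 and 20 of the 26 were past 2-fold, but this step empties ND for genes that 1 ND cell held, such as Col2a1 and Scrg1, and so raises their ratios. The highest ratio was that of Col2a1, the type II collagen of cartilage, at 112 and 1082 UPM, in 1 ND and 9 HFD cells, with 1080 of its 1607 HFD UMIs in 1 cell. Its log2 ratio of 3.26 was 1.35 with cells of at least 10 osteocalcin UMIs, 1.67 without the cells rich in blood genes and 1.68 over the cells in which it took under 1% of UMIs. Crispld1, Htra4, Cox4i2, Wif1, Col11a2, Scrg1 and the cartilage proteoglycan Acan (48.0 and 274 UPM) had ratios from 2.31 to 2.96. The Htra4 ratio of 2.77 was 0.58, under 2-fold, with cells selected by at least 0.2% osteocalcin UMIs. As a mean over cells the ratio was 1.38 for Crispld1, 1.39 for Cox4i2, 1.43 for Wif1 and 1.50 for Scrg1, and with cells of at least 10 osteocalcin UMIs it was 1.29 for Acan and 1.59 for Col11a2. These 7 genes were found in 1 to 12 ND and 8 to 29 HFD cells.

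Blood genes moved with the diets too. All 10 neutrophil genes were higher in HFD, 9 of them at least 2-fold beside 3.72% of all genes, with a median ratio of 1.70; S100a9 stood at 1228 and 4077 UPM, and Camp, a granule peptide, at 111 and 778 UPM. Without the 5 ND and 9 HFD cells in which blood genes reached 1% of UMIs the ratio was 0.50 for S100a9 and 0.58 for Camp, and the median over the 7 genes that still had enough UMIs was 0.57. Over the cells with S100a9 under 1% of UMIs (60 in ND, 126 in HFD) S100a9 stood at 393 and 464 UPM. Lyz2, the only one of 7 macrophage genes with enough UMIs, was lower (549 and 204 UPM, -1.43), but its ratio was -0.061 without the cells rich in blood genes. Also lower was the chemokine Ccl5 (224 and 63.9 UPM), of whose UMIs 1 cell held 95.5% in ND and 1 cell 96.8% in HFD, with a ratio of -1.81 that was -0.56 with cells thinned. Among the 10 lowest genes were also Gem, a small GTPase (212 and 59.9 UPM), the early gene Ier5 (473 and 179.7 UPM) and the secreted protein gene Crispld2 (445 and 178 UPM, -1.32). Crispld2 was found in 41 ND and 65 HFD cells, and in osteocalcin-low cells its ratio was 0.21.

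Few fat cell genes could be measured. Of 13 adipogenic genes 6 had enough UMIs. All 6 were lower in HFD, 1 of them at least 2-fold beside 3.3% of all genes. This was the transcription factor gene Cebpb (445 and 217 UPM, -1.04), whose ratio became -0.69 without the highest cell of each library. The median of the 6 went from -0.74 to -0.37 in the same step. Adipoq, the adipokine adiponectin, had 0 UMIs in both libraries, and Pparg, the master factor of fat cells, had 0 and 1. Of 7 measured interferon-stimulated genes 2 were at least 2-fold lower and none at least 2-fold higher, beside 3.3% and 3.72% of all genes. The lower ones were Isg15 and Ifi27l2a, with 14 and 20 UMIs in ND, the former at -0.46 without the highest cell of each library. The median ratio of the 7 was -0.49.

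Cartilage and tendon genes were uneven. Of 5 measured chondrocyte genes 3 were at least 2-fold higher (Acan, Col2a1 and Prg4) beside 3.72% of all genes, and 1, Snorc, at least 2-fold lower beside 3.3%, with 105 UMIs in ND and 55 in HFD. The Snorc ratio of -2.04 turned to 0.65 without the highest cell of each library. Comp was the one of 5 measured tenocyte genes past 2-fold, beside 3.72% of all genes at least 2-fold higher. Its ratio was under 2-fold at 0.44 with cells thinned and 0.45 as a mean over cells. It was also under 2-fold at 0.69 with cells of at least 10 osteocalcin UMIs and 0.87 with the same mix of osteocalcin levels. Of 12 matrix proteases 1 was at least 2-fold higher and 1 at least 2-fold lower, beside 3.72% and 3.3% of all genes. The higher one was Mmp9, a gelatinase that neutrophils and osteoclasts also make, with 6 and 39 UMIs. Adamts1, an aggrecanase, was the lower one (169 and 82.1 UPM, -1.04, and -0.57 without the highest cells). Cpt1a, which carries fatty acids into mitochondria, was the one of 11 measured carboxylation and energy genes past 2-fold, beside 3.72% of all genes. Its counts were 6 and 50 UMIs (1.85, 0.72 to 3.46). It was found in 6 of 62 ND and 39 of 131 HFD cells.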

How the data were processed

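Droplet-based single-cell RNA sequencing of femoral and tibial periosteum was analysed from 1 matrix per diet. Per the submitters' processing notes the authors used Cell Ranger 6.0.1 and mm10, and the deposited values are whole-number UMI counts per gene and barcode, not normalized, for 32285 genes. Filters on genes and mitochondrial UMIs follow the study's methods. Members and gene lists were chosen with earlier results of these data known.

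UMIs were summed over cells, 0.5 was added to each count, and log2 ratios were taken for genes with at least 20 UMIs, where called means at least 2-fold. Intervals (95%) were Clopper-Pearson for shares, Poisson for levels (a count of 0 allows 3) and exact binomial for ratios, and the ratio computation was tested on simulated data. The simulated counts were Poisson draws of summed UMIs without variation among cells, so that the test does not cover ratios led by single cells. Thinned shares used 2000 UMIs per cell. Genes considered for naming were the 6 markers, the 4 most abundant and every 2-fold gene of 30 lists, and the 15 most abundant genes. Also considered, among genes with at least 200 UMIs, were the 10 highest and lowest diet ratios and the 15 highest and 10 lowest differences from osteocalcin-low cells. Not all of these are named in the text, and some 2-fold genes of the neutrophil, erythroid, B cell, osteocyte and Schwann lists are not. The Schwann list had 1 of 4 measured genes at least 2-fold higher in HFD (log2 ratio 6.01), beside 3.72% of all genes, and 0 without the highest cell of each library. Prg4-rich and Spp1-rich groups were chosen after their values were seen. Genes were skipped when their symbols were of the Gm or Rik kind. Doublets were called with Scrublet (scanpy 1.11.5) and kept. Coordinates are GRCm38 (mm10). Computations ran in Python 3.11.15 with matplotlib 3.10.9, pandas 2.3.3, scipy 1.17.1 and numpy 2.4.6.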

Additional observations from a re-analysis of the deposited data

Results flagged for a closer look

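The neutrophil list moved in opposite directions in the 2 gated groups: its summed level had a log2 ratio of HFD over ND of 1.74 in osteocalcin-high cells and -0.62 in osteocalcin-low cells, a difference between 1 library per diet that was not tested. Outside the collagen and Cdh5 gate, 6 HFD and 2 ND kept cells held at least 20 UMIs of Bglap, Bglap2 and Ibsp, and these cells entered no comparison.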

How the results depend on the processing

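No paired analysis was possible because no barcode is assigned to a mouse, and for the same reason no replicate could be left out. The share of osteocalcin-high cells among HFD gated cells moved from 19.5% to 15.6% at a threshold of 40 UMIs and stayed inside its interval under the other 5 rules, as did the ND share under all 6. The counts of genes at least 2-fold higher and lower in HFD (320 and 284) became 116 and 102 with every cell thinned to 2000 UMIs, 53 and 42 at a minimum of 100 UMIs, and 1638 and 2218 at a minimum of 1 UMI. They became 512 and 229 without the highest cell of each gene (chosen after seeing the data), and were within 1.5 times under the other 12 settings. Of the calls, 26 higher and 25 lower genes were shared between the thinned and the full counts. Against osteocalcin-low cells the 415 higher and 703 lower genes became 113 and 116 when only osteocalcin-low cells with at least 10 Postn UMIs (9 in ND, 20 in HFD) were used, and 175 and 382 at a minimum of 100 UMIs. The median ratio of the immediate early and stress list (-0.71) moved furthest without the highest cell of each gene, to -0.61, and that of the secretory list, near 0 throughout, went furthest on thinning, to 0.15. The neutrophil median of 1.70 became 0.57 without the 5 ND and 9 HFD cells with at least 1% blood RNA (7 genes left of 10), 0.79 as a mean over cells and 0.62 on thinning (7 genes left). Of 544 values of 34 genes recomputed under these settings, 1 changed sign from a main ratio past 2-fold: the Prg4 ratio of 1.98 became -0.46 when cells were taken at 0.2% osteocalcin UMIs. Another 116 moved by more than their counting interval. Lyz2 became -0.061 and Camp 0.58 without the cells with blood RNA. Spp1 ranged from 1.94 (cells weighted to the same mix of osteocalcin levels) to 3.47 (without the highest cell of each library). Scrublet called 9 cells in ND (0.149%) and 23 in HFD (0.37%), with no osteocalcin-high cell among them, too few for doublets to count as checked. With 1 library per diet, no spread between mice could be measured.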
